A study of Homo sapiens with 16 samples.

Results

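7SK is an abundant nuclear RNA made by RNA polymerase III, and the genes described here are 7SK and 7 protein-coding genes of the particle it forms: LARP7, MEPCE, HEXIM1, HEXIM2, CDK9, CCNT1 and CCNT2. They were chosen by symbol, and 14 of the 60669 rows in each table carried 1 of these 8 symbols, 7 of them the symbol 7SK. RNA came from HMC3, an established human cell line labelled as microglial, either wild type (WT) or labelled METTL3 KO. METTL3 is the catalytic subunit of the enzyme that writes N6-methyladenosine (m6A) on RNA. Polyadenylated RNA was amplified by Smart-seq2 in 5 libraries per genotype, and depletion of ribosomal RNA followed by a directional kit gave 3 libraries per genotype. No treatment, time or cell clone is named in the labels, nor whether replicates came from separate cultures, so p-values measure the spread between these samples, which may be technical.

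P-TEFb, the kinase CDK9 bound to a cyclin T, phosphorylates RNA polymerase II and its pausing factors and so releases paused polymerase into elongation. Much of it is held inactive in the 7SK particle, where HEXIM proteins, bound to the RNA, block the kinase. MEPCE caps the 5′ end of 7SK and LARP7 holds its 3′ end, and together they keep the RNA stable.

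The 5′ end of 7SK is shown because it holds the 5′ hairpin that HEXIM proteins bind. The gene lies at chr6:52995620-52995950 on the plus strand of GRCh38 (ENSG00000202198, 331 bases). The sequence is the start of the transcript in GENCODE 29, written as DNA with each GATC motif in capitals.
7SK on chromosome 6: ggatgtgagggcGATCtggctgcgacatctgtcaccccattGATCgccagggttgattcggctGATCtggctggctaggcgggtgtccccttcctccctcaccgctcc

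GATC, the motif in the 5′ hairpin that HEXIM1 is known to bind, occurred 3 times in 7SK, starting at bases 13, 42 and 64 counted from the 5′ end. GATC reads the same on both strands. Of 46752 other genes with a transcript of at least 331 bases, 6.68% had as many GATC motifs in the first 331 bases of their longest transcript, and 58.4% had any. On the RNA strand alone, GGAC and GAAC, forms of the core m6A consensus, occurred 2 times each in 7SK. Any GGAC was found in 73.4% of the same windows and any GAAC in 66.9%. No m6A measurement is among the files used here.

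METTL3, the targeted gene, was examined first as a check of the label. Its level was 31.2, 31.6 and 25.4 TPM across wild-type libraries 1 to 3, against 39.2, 39.96 and 42.7 TPM in knockout-labelled libraries 1 to 3. The difference did not pass (log2 0.48, limma adjusted p 0.106), nor did that in the authors' deposited poly(A) table (0.09, adjusted p 0.654). TPM is each gene's share of a library's transcripts after division by gene length. No knockout-labelled library had less METTL3 mRNA than a wild-type one, so this level does not check the label, and all directions below are for that label. Of 11 microglial and macrophage markers, 8 were listed at 0 in all 6 libraries, AIF1, CX3CR1, P2RY12, TMEM119 and ITGAM among them, and the 11 together summed to 0 to 6.47 TPM in the wild type and 0.532 to 5.24 TPM under the knockout label. Depth, recovered from the steps in TPM, was 266157 to 487272 reads in the wild type and 512627 to 1267171 reads under the knockout label. Knockout-labelled libraries 1 and 2 could not be told apart from sampling noise (chi-square of 1.02 per degree of freedom over 10117 genes, p = 0.0687) and were counted as 1 sample, which left 3 samples against 2. Markers of other cell types also differed between the labels. The 6 mesenchymal markers summed to 10359 to 12827 TPM in the wild type and 1162 to 1308 TPM under the knockout label, a sum made up mostly of COL1A1 (means of 10669 and 819 TPM). COL1A2 (-2.18 on the log2 scale) and PDGFRB (-1.08) were also lower and THY1 was higher (1.05, limma adjusted p 0.00256). ACTA2 did not pass (limma adjusted p 0.47) and COL3A1 was at or near 0. In the authors' deposited table COL1A1 was lower (-0.79, adjusted p 2.65e-15) and THY1 higher (0.58, adjusted p 4.02e-21). There COL1A2 was higher (0.30, adjusted p 0.0029), opposite to its fall after rRNA depletion, and PDGFRB did not pass (-0.05, adjusted p 0.886). The 4 epithelial markers, almost all KRT18, summed to 730 to 804 TPM and 334 to 340 TPM. Of 4 neuronal and astrocyte markers, SNAP25 was higher (2.86, limma adjusted p 0.0207), with 1 wild-type read in all against 25. Their part in the results below was not tested. With TPM as deposited, 3382 genes were higher (22.9% of those tested) and 1838 lower (12.4%) at a limma adjusted p under 0.05. The median log2 change over all genes tested was 0.41 with TPM as deposited, 0.11 with median ratio scaling and 0.57 with 7SK rows taken out of the TPM total. The calls split into 2364 higher and 2499 lower with median ratio scaling, 2651 and 2442 with quantile normalization, 1830 and 2043 with the trend over GC content removed, and 3864 and 3509 under voom on recovered reads.

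7SK stood at 40700, 36830 and 37114 TPM in wild-type libraries 1 to 3. It stood at 143833, 146530 and 156688 TPM in knockout-labelled libraries 1 to 3. The highest wild-type library was far below the lowest knockout-labelled one, and 7SK was the most abundant gene by TPM in all 3 knockout-labelled libraries against places 2, 3 and 2 in the wild type. The wild type averaged 38215 ± 2157 TPM (SD, n = 3), and the knockout label 150935 ± 8136 TPM (SD, n = 2), a ratio of 3.95. This difference was known when the genes were chosen, so it is given as a description with no test. TPM is a share of RNA in bulk material, so more 7SK per cell and less of other RNA per cell cannot be told apart.

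**Figure D1:**
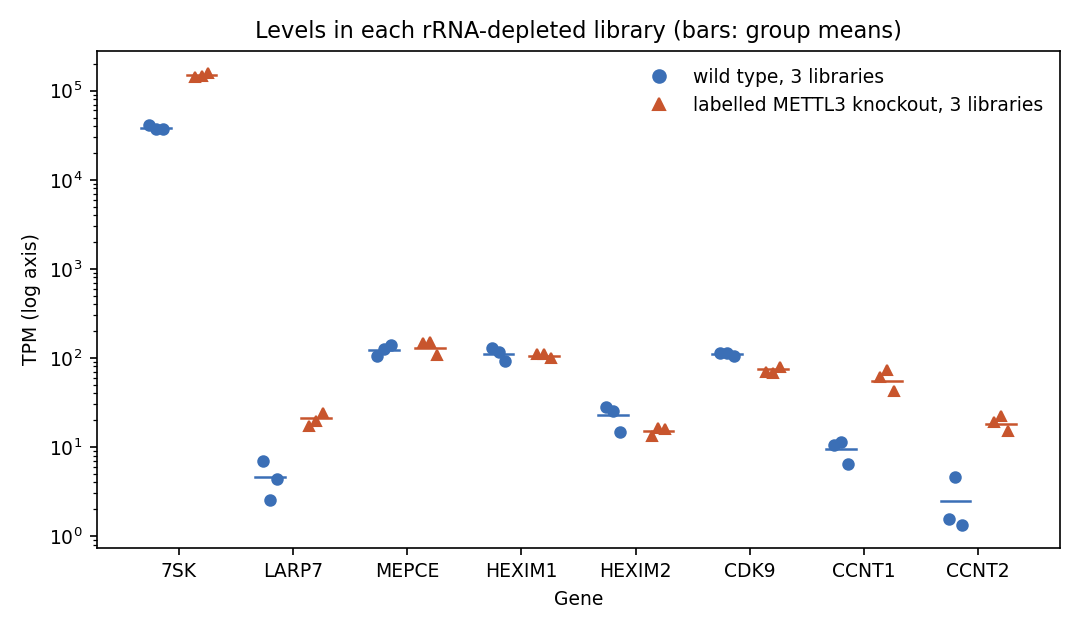
TPM on a log axis of 7SK and the 7 protein-coding genes in each rRNA-depleted library, circles for the wild type, triangles for the knockout label and bars for group means (knockout-labelled libraries 1 and 2 counted as 1). The groups stand apart for 7SK, LARP7, CCNT1, CCNT2 and CDK9, the last with the knockout label lower, and overlap for MEPCE, HEXIM1 and HEXIM2.

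TPM magnifies short genes, and the difference was also read on the scale of reads. 7SK took 1902, 1178 and 2052 reads in wild-type libraries 1 to 3 and 14204, 17708 and 8031 reads in knockout-labelled libraries 1 to 3. Its share of reads was 0.466% (95% Wilson interval 0.446 to 0.488), 0.443% (0.418 to 0.469) and 0.421% (0.403 to 0.44) in the wild type. Under the knockout label the share was 1.37% (1.35 to 1.39), 1.40% (1.38 to 1.42) and 1.57% (1.53 to 1.60). Reads without molecular identifiers are not separate molecules, so these intervals and those below cover only the error of counting. The lowest knockout-labelled share remained well above the highest wild-type one.

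Almost all reads of rows with the symbol 7SK fell to the chromosome 6 gene. The other 6 rows with that symbol held at most 1 read each in any library, and 5 of them were listed at 0 in every library. The 294 pseudogenes named RN7SKP summed to 295 to 613 TPM in the wild type and 456 to 676 TPM under the knockout label, ranges that overlap. They came to between 0.317% and 1.66% of the 7SK level in a library. How the authors assigned reads that match several copies is not given in the sources used here. No single RN7SKP pseudogene had more than 13 reads in a library.

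LARP7 mRNA, for the protein that holds the 3′ end of 7SK, stood at 6.94, 2.53 and 4.4 TPM in wild-type libraries 1 to 3. It stood at 17.2, 19.5 and 23.7 TPM in knockout-labelled libraries 1 to 3. Every knockout-labelled library was above every wild-type one. Mean LARP7 was 4.62 ± 2.21 TPM (SD, n = 3) in wild-type libraries and 21.0 ± 3.80 TPM (SD, n = 2) in knockout-labelled ones. On the scale of log2(TPM + 1) this is a change of 2.04 (SE 0.48), with 0.0263 as the limma adjusted p. LARP7 rested on 4, 1 and 3 wild-type reads against 21, 29 and 15, and its share of reads over all libraries of a label was 3.35 times as large under the knockout label (exact 95% interval 1.60 to 8.08, counting error only). With the trend over GC content removed from each library the log2 change was 1.03, and LARP7 did not pass (limma adjusted p of 0.174), nor did it without wild-type library 3 (0.0559) or knockout-labelled library 3 (0.181).

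MEPCE, the capping enzyme of 7SK, had 103.6, 127.1 and 140 TPM across wild-type libraries 1 to 3, against 145, 151 and 107.6 TPM in knockout-labelled libraries 1 to 3. The 2 groups overlapped. The wild type averaged 124 ± 18.5 TPM (SD, n = 3), and the knockout label 127.9 ± 28.7 TPM (SD, n = 2). The log2 change was 0.04, with a 95% interval from -0.47 to 0.56 and a limma adjusted p of 0.889. Of the mRNAs for the 2 proteins that stabilise 7SK, LARP7 was thus past the threshold and MEPCE not. With the GC trend removed neither passed (log2 change 1.03 for LARP7 and 0.28 for MEPCE, limma adjusted p of 0.174 and 0.361). The difference between their changes was not tested. The ratio of MEPCE to LARP7 TPM was 14.9, 50.1 and 31.8 in the wild type and 8.41, 7.78 and 4.54 under the knockout label, with no overlap, though it rests on the few LARP7 reads.

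HEXIM1, the main inhibitor of P-TEFb within the particle, stood at 127.9, 115 and 91.5 TPM across wild-type libraries 1 to 3, against 110.8, 111.1 and 98.7 TPM in knockout-labelled libraries 1 to 3. All knockout-labelled values lay within the wild-type range. The wild type averaged 111.4 ± 18.5 TPM (SD, n = 3), and the knockout label 104.8 ± 8.68 TPM (SD, n = 2). The log2 change was -0.08, with a 95% interval from -0.52 to 0.37 and a limma adjusted p of 0.764. It was -0.56 with the GC trend removed (limma adjusted p of 0.0873) and -0.43 with median ratio scaling (0.121).

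HEXIM2, its paralog, had 27.8, 25.4 and 14.7 TPM across wild-type libraries 1 to 3, against 13.2, 16.1 and 15.8 TPM under the knockout label. Wild-type library 3 lay among the knockout-labelled values and the other 2 above them. The log2 change was -0.49 (95% interval -1.36 to 0.38, limma adjusted p of 0.316), from 5 to 12 reads per library. HEXIM1 exceeded HEXIM2 in TPM in all 6 libraries, by a ratio of 4.53 to 6.23 in the wild type and 6.23 to 8.42 under the knockout label, ranges that meet.

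CDK9, the kinase of P-TEFb, stood at 113.3, 113.8 and 105.8 TPM in wild-type libraries 1 to 3. It stood at 69.3, 67.6 and 79.6 TPM in knockout-labelled libraries 1 to 3. Every knockout-labelled library was below every wild-type one, and the wild-type libraries lay within a narrow range. CDK9 averaged 111 ± 4.52 TPM (SD, n = 3) in the wild-type libraries, against 74.0 ± 7.94 TPM (SD, n = 2). CDK9 changed by -0.58 on the log2 scale (SE 0.13), with 0.0209 as the limma adjusted p. CDK9 did not pass once the 7SK rows were taken out of the TPM total (log2 change -0.40, limma adjusted p of 0.0597), with the GC trend removed (-0.43 and 0.115) or without wild-type library 1 (-0.57 and 0.0594).

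CCNT1 encodes cyclin T1, the commonest partner of CDK9. It had 10.6, 11.2 and 6.50 TPM across wild-type libraries 1 to 3, against 60.9, 72.5 and 42.9 TPM in knockout-labelled libraries 1 to 3. The lowest knockout-labelled library was above the highest wild-type library by a wide margin. The wild type averaged 9.43 ± 2.56 TPM (SD, n = 3), and the knockout label 54.8 ± 16.8 TPM (SD, n = 2), which is 2.42 on the log2 scale (SE 0.35), with 0.00686 as the limma adjusted p. CCNT1 had 27 wild-type reads and 378 under the knockout label, a share of reads 5.77 times as large (exact 95% interval 3.90 to 8.87). CCNT1 had 1.55 on the log2 scale once the GC trend was removed (limma adjusted p of 0.0262). Of 18 alternatives, the 1 in which CCNT1 did not pass left out knockout-labelled library 3 (limma adjusted p of 0.0605), so that 1 sample with that label remained.

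CCNT2 encodes cyclin T2, the other cyclin of P-TEFb. It had 1.56, 4.56 and 1.32 TPM across wild-type libraries 1 to 3, against 19.2, 22.3 and 14.9 TPM under the knockout label. The groups did not overlap. The wild type averaged 2.48 ± 1.81 TPM (SD, n = 3), and the knockout label 17.9 ± 4.12 TPM (SD, n = 2), which is 2.54 on the log2 scale (SE 0.56), with 0.0216 as the limma adjusted p. CCNT2 rested on 2, 4 and 2 wild-type reads against 52, 74 and 21, a share of reads 7.57 times as large (exact 95% interval 3.74 to 17.9). CCNT2 did not pass with the GC trend removed (log2 change 1.47, limma adjusted p of 0.125), without wild-type library 1 (0.0513) or without knockout-labelled library 3 (0.119).

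Of the 7 protein-coding genes, 3 were thus higher, against 22.9% of all 14789 genes tested, and 1 lower, against 12.4%. Together that is 4 of 7 at a limma adjusted p under 0.05, against 35.3%. The count was 2 without wild-type library 1, where 4342 of all 14789 genes passed, against 5220 as reported. It was 1 (CCNT1) with the GC trend removed, where 3873 of all genes passed. Without knockout-labelled library 3 a lone sample was left under that label, and fewer passed among the 7 as over all genes. The median log2 change of the 7 genes was 0.04, against 0.41 over all genes tested. Groups that did not overlap were found for 4 of the 7, where 62.7% of all genes tested had them. These shares do not set the 7 genes apart from the rest.

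The order of the levels, which TPM allows since it is per length, had 7SK far above the mRNAs in both groups. MEPCE, HEXIM1 and CDK9 followed in the wild type with means of 124, 111.4 and 111 TPM, which do not differ beyond their spread. HEXIM2 came next with 22.6 ± 6.98 TPM (SD, n = 3), then CCNT1, LARP7 and CCNT2. The values of LARP7 overlapped with those of each cyclin in the wild type. Under the knockout label MEPCE and HEXIM1 overlapped at the top of the mRNAs, and CDK9 followed and overlapped with CCNT1. LARP7, CCNT2 and HEXIM2 came last. HEXIM2 had the lowest mean, 15.2 ± 0.85 TPM (SD, n = 2), but its values overlapped with those of CCNT2.

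Ratios of TPM within a library do not depend on how libraries are scaled. The ratio of 7SK to CDK9 was 359, 324 and 351 in the wild type and 2076, 2169 and 1967 under the knockout label. The ratio of 7SK to HEXIM1 was 318, 320 and 406 in the wild type and 1298, 1319 and 1588 under the knockout label. Both ratios were thus several times larger in each knockout-labelled library than in any wild-type one. The ratio of 7SK to LARP7 was 5865, 14531 and 8437 in the wild type and 8343, 7532 and 6604 under the knockout label. These values overlapped, but those of the wild type rest on 4, 1 and 3 LARP7 reads, so the overlap says little.

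For the cyclins the ratios moved away from a large excess of the kinase mRNA. The ratio of CCNT1 to CDK9 was 0.0933, 0.0987 and 0.0614 in the wild type and 0.88, 1.07 and 0.539 under the knockout label. The ratio of CCNT2 to CDK9 was 0.0138, 0.04 and 0.0125 in the wild type and 0.277, 0.33 and 0.188 under the knockout label. In both pairs the groups did not overlap, but the wild-type ratios of CCNT2 rest on 2, 4 and 2 CCNT2 reads. CCNT1 and CCNT2 have 40.8% and 37.0% GC and CDK9 has 55.1%. The part of GC content in these ratios was not tested. The ratio of HEXIM1 to CDK9 lay between 0.865 and 1.13 in the wild type and between 1.24 and 1.64 under the knockout label. Such ratios compare RNA levels and say nothing of protein.

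**Figure D2:**
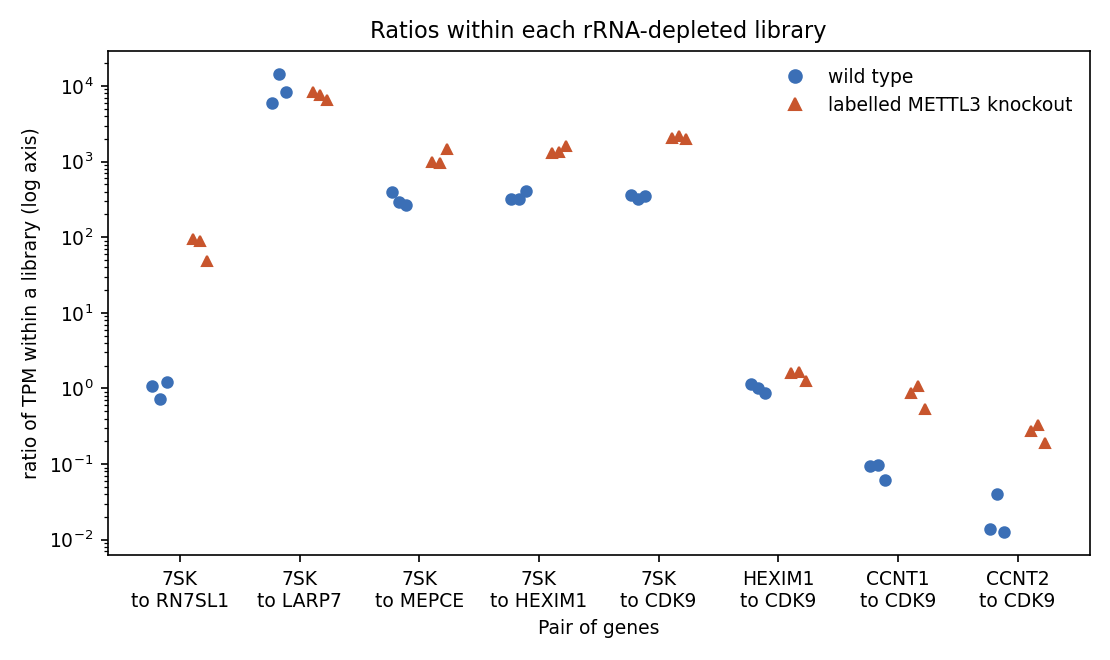
Ratios of TPM within each rRNA-depleted library for 8 pairs of genes on a log axis, circles for the wild type and triangles for the knockout label. The 7SK to RN7SL1 ratio differs most, from between 0.736 and 1.22 to between 49.0 and 95. The 7SK to LARP7 ratios overlap, with 4, 1 and 3 LARP7 reads in wild-type libraries 1 to 3.

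The GC content of the transcript moved with these differences. LARP7, CCNT1 and CCNT2, the 3 that rose, had 38.1%, 40.8% and 37.0% GC in their longest transcript. HEXIM1, CDK9, HEXIM2 and MEPCE had 48.2%, 55.1%, 60.9% and 61.7%, so the 3 genes that rose were also the 3 lowest in GC. Over all genes tested, the median log2 change fell from 1.24 in the group of lowest GC content (27.0% to 38.6%), which holds LARP7 and CCNT2, to -0.41 in the group of highest (61.4% to 75.5%), which holds MEPCE. In the GC group of CCNT1 the median was 1.06. The change of each of the 3 exceeded the median of its GC group. The part of GC content in these differences was not tested beyond the alternative that removes its trend.

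7SK has 58.0% GC and a log2 ratio of group means of 1.98, and the median log2 change of its GC group was -0.08. The shortest genes tested, of 49 to 988 bases, had a median of -0.18. The part of GC content or length in the difference of 7SK was not tested.

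**Figure D3:**
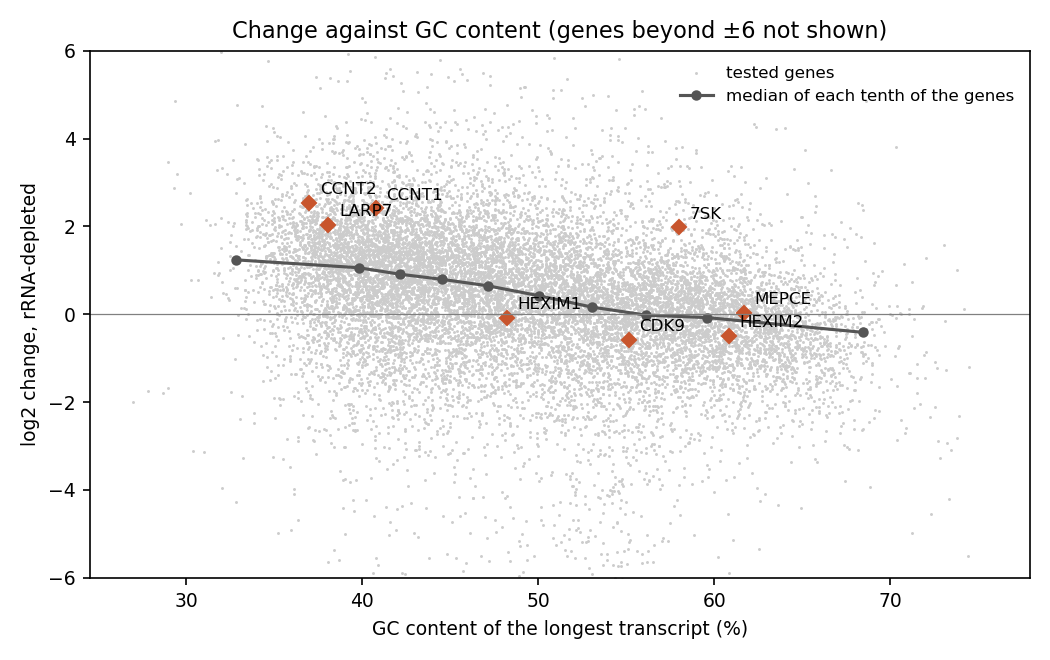
Log2 change in the rRNA-depleted libraries against GC content of the longest transcript (%), grey points for genes tested, the line for the median of each of 10 groups of equal size and diamonds for the 8 genes (7SK as the log2 ratio of group means). LARP7, CCNT1 and CCNT2 lie at the low-GC end above the line, and 7SK lies above it at 58.0% GC.

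The poly(A) libraries measured the same genotypes in separate samples, and their values come from the authors' deposited table of 1 comparison, which has no value for a single library. The numerator is not stated there. It was taken as the knockout label because 91.5% of the 177 genes called in both types, with changes of 1 or more in size on the log2 scale, then had the same sign. For 7SK the authors' deposited table gave 75.0 as the mean normalized count and 0.15 as the log2 fold change (SE 0.22, adjusted p 0.705). The 95% interval of that change, from -0.27 to 0.57, does not reach the difference seen after rRNA depletion, but poly(A) selection is not designed to capture an RNA that normally has no poly(A) tail. The other 6 rows of that symbol had a mean of 0.

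In the DESeq2 values of the authors' deposited table, 0 of the 8 genes passed an adjusted p of 0.05, where 19.9% of 14009 genes did (9.55% higher and 10.3% lower). At an unadjusted p under 0.05 there were 2, CDK9 (0.0147) and CCNT2 (0.0396). The authors' deposited table gave -0.50 for CDK9 on the log2 scale (SE 0.21, adjusted p 0.0681), beside -0.58 after rRNA depletion. For LARP7 the authors' deposited table gave -0.07 (95% interval -0.34 to 0.20), for CCNT1 0.17 (-0.25 to 0.58) and for CCNT2 0.28 (0.01 to 0.55). These intervals lie below the log2 changes of these 3 mRNAs after rRNA depletion, though the scales and fits differ and the difference between library types was not tested. GC content moved less with the change in the authors' deposited table, where the median went from 0.14 in the group of lowest GC to -0.14 in that of highest.

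For the remaining genes the authors' deposited table gave wide intervals. MEPCE had 0.17 (95% interval -0.36 to 0.70), HEXIM1 -0.32 (-0.88 to 0.24) and HEXIM2 0.66 (-0.56 to 1.89). HEXIM2 had a mean normalized count of 3.57, the lowest of the 8.

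**Figure D4:**
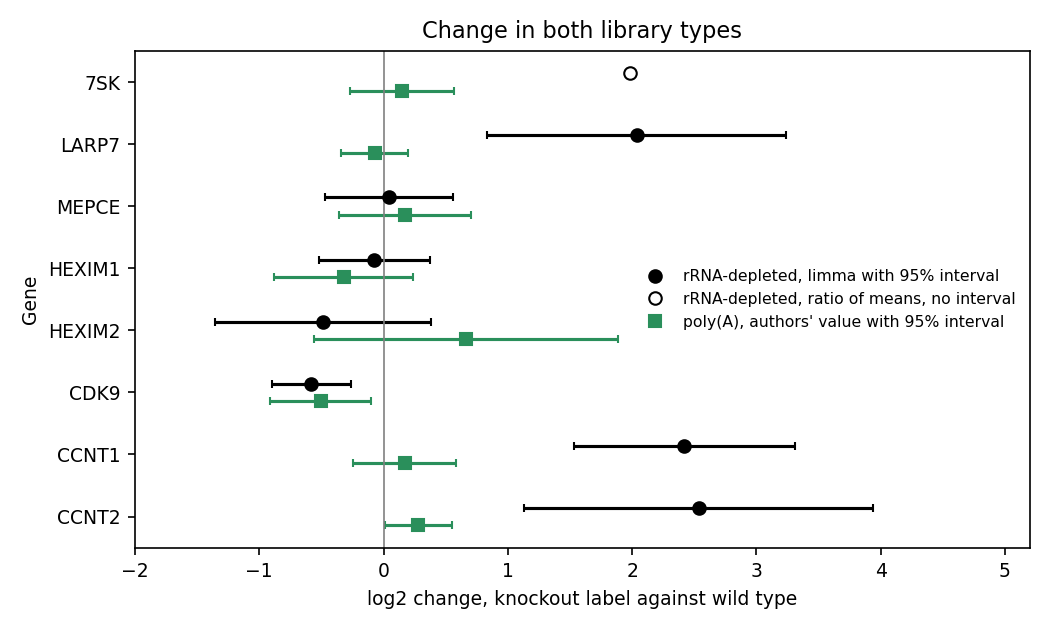
Log2 change of each gene, knockout label against wild type, circles for the rRNA-depleted libraries with 95% limma intervals (7SK as an open circle, the ratio of means with no interval) and squares for the authors' poly(A) values with 95% intervals from their standard errors. CDK9 lies below 0 in both types, and LARP7, CCNT1 and CCNT2 lie at 2.04 to 2.54 after rRNA depletion and at -0.07 to 0.28 in the poly(A) libraries.

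Some annotated genes overlap these genes on the opposite strand, and whether counting used strand is not given in the sources used here. LARP7 overlaps ZGRF1, which had up to 38 reads in a library, more than LARP7 itself. HEXIM1 and HEXIM2 both overlap HEXIM2-AS1, with up to 5 reads, and MEPCE overlaps ZCWPW1, with up to 10. CCNT2-AS1, and the pseudogenes of LARP7 and CCNT2, were listed at 0 in all 6 libraries.

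Other genes of pausing, elongation and RNA polymerase III were read from 9 lists of 109 symbols in all, 97 of them tested. RNA polymerase III with its 7SK promoter factors gave 21 of the tested genes, and transcripts of that polymerase 10. Of all 97, 28 were higher and 19 lower at a limma adjusted p under 0.05, which is 48.5% beside 35.3% of all genes. Their median log2 change was 0.55, beside 0.41 for all genes. The split was 20 higher and 20 lower with median ratio scaling, beside 2364 and 2499 of all 14789 genes. With the GC trend removed it was 18 and 16, beside 1830 and 2043 of 14789. With 7SK rows taken out of the TPM total it was 38 and 16, beside 4040 and 1588 of 14776. Fewer genes passed without knockout-labelled library 3, in these lists as over all genes, when a lone sample was left under that label. Apart from HNRNPA1 and HNRNPA2B1, no called gene named below changed direction under the other scalings, the GC correction or voom. With the GC trend removed some of them no longer passed. Among these, NELFE (-0.61), NELFA (-0.58) and MLLT3 (2.05) then kept a log2 change within 1.5 times of that reported below. It was more than 1.5 times smaller, and no longer passed, for AFF1 (1.07), CTR9 (0.97), CCNK (1.01), HNRNPR (0.84), SYNCRIP (0.94), SSB (0.77), TRIM28 (-0.34) and POLR3G (1.21). Of those that still passed, CDC73 (0.95), POLR2B (0.86), ELL2 (1.70), NELFB (-0.67) and NELFCD (0.98) were also more than 1.5 times smaller, and RTF1 was 1.27. With median ratio scaling SUPT4H1, SUPT5H and SSB did not pass, nor did POLR3D with 7SK rows taken out of the TPM total. SUPT4H1 also did not pass under voom on recovered reads (0.44, limma adjusted p 0.161). The counts of each list below stand beside 22.9% higher and 12.4% lower over all genes tested, and its median beside 0.41. In the authors' deposited table the shares over all genes were 9.55% higher and 10.3% lower. No list was tested as a set.

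The super elongation complex, which brings P-TEFb to genes, and its bromodomain partners had 5 of 11 tested genes higher and 0 lower, with a median log2 change of 1.31. ELL2, an elongation factor, rose by 2.61 on the log2 scale, from a wild-type mean of 9.85 ± 3.85 TPM (SD, n = 3) to a knockout-labelled mean of 62.9 ± 4.51 TPM (SD, n = 2). AFF1, a scaffold of the complex, rose by a log2 change of 1.73, and in the authors' deposited table it had 0.72 with an adjusted p of 0.000203. MLLT3 passed with a log2 change of 3.05 but had 0, 1 and 0 wild-type reads against 20, 32 and 13. Its share of reads was 26.8 times as large, with an exact 95% interval from 4.64 to 1074. In the authors' deposited table ELL2 (0.28) and MLLT3 (0.30) did not pass.

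The pausing factors, among them targets of CDK9, had 3 of 6 higher and 3 lower, with a median of 0. NELFB (-1.04), NELFA (-0.81) and NELFE (-0.77) of the negative elongation factor fell on the log2 scale. The other subunit, NELFCD, rose by 1.51, and both subunits of DSIF rose, SUPT5H by 1.10 and SUPT4H1 by 0.78. NELFE was also lower in the authors' deposited table (-0.71, adjusted p 5.11e-19), and SUPT5H higher (0.52, adjusted p 0.000748). NELFB (0.42), NELFA (0.12), NELFCD (-0.14) and SUPT4H1 (-0.30) did not pass there. Each of them had the opposite sign to its change after rRNA depletion.

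The PAF1 complex, which travels with elongating polymerase, had 4 of 6 higher and 0 lower with a median log2 change of 1.72, among them CDC73 (2.07), RTF1 (1.86) and CTR9 (1.66). RTF1 was higher in the authors' deposited table as well (0.35, adjusted p 0.00407), while CDC73 (0.05) and CTR9 (0.13) did not pass there. Among the other transcription kinases and cyclins 2 of 9 were higher, CDK12 (2.14) and its cyclin CCNK (1.62), and 0 lower. That is close to the 22.9% higher over all genes tested. In the authors' deposited table CCNK was higher (0.67, adjusted p 7.24e-05) and CDK12 did not pass (0.17). Of the 12 subunits of RNA polymerase II, 11 were tested, with 4 higher and 2 lower and a median of 1.27. POLR2A, the subunit whose tail CDK9 phosphorylates, rose by 1.27 on the log2 scale, from a wild-type mean of 124.5 ± 7.12 TPM (SD, n = 3) to a knockout-labelled mean of 302.5 ± 11.6 TPM (SD, n = 2), and had 0.70 in the authors' deposited table (adjusted p 1.18e-05). POLR2B (1.66), POLR2C (1.58) and POLR2E (1.49) also rose, and POLR2D (-1.49) and POLR2L (-0.80) fell. POLR2E had the opposite sign in the authors' deposited table (-0.49, adjusted p 0.000338), and POLR2L the same sign (-0.77, adjusted p 8.12e-06). POLR2B was higher there (0.26, adjusted p 0.0442), while POLR2C (0.01) and POLR2D (0.17) did not pass. Of the 11 subunits with an adjusted p there, 2 were higher and 5 lower, with a median of -0.37.

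Factors that bind 7SK or free P-TEFb from it had 7 of 14 higher and 2 lower, with a median log2 change of 0.53. The RNA-binding proteins SYNCRIP (2.03) and HNRNPR (1.98), which bind 7SK released from P-TEFb, rose, as did SSB (1.68), the La protein that binds new RNA polymerase III transcripts. PPP1CA, a phosphatase catalytic subunit, went from a wild-type mean of 1116 ± 277.5 TPM (SD, n = 3) to a knockout-labelled mean of 226.8 ± 12.8 TPM (SD, n = 2), a log2 change of -2.27, and TRIM28 fell by 0.67. Of the 14, the authors' deposited table had 0 higher and 4 lower, namely PPP1CA (-0.33), HNRNPR (-0.28), HNRNPA2B1 (-0.27, adjusted p 1.54e-05) and HNRNPA1 (-0.24, adjusted p 0.0146). Of these 4, 3 passed in opposite directions in the 2 types, since HNRNPR, HNRNPA1 (0.73, limma adjusted p 0.0104) and HNRNPA2B1 (0.53, limma adjusted p 0.0202) were higher after rRNA depletion. With the GC trend removed HNRNPA1 was -0.02 and HNRNPA2B1 -0.38 (limma adjusted p 0.954 and 0.146), and with median ratio scaling they were 0.38 and 0.18 and did not pass (0.0819 and 0.314).

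RNA polymerase III, which makes 7SK, and the factors of the 7SK promoter had 2 of 21 genes higher and 4 lower, with a median log2 change of 0.52. POLR3C (1.94) and POLR3G (2.38) rose, POLR3G from 1 read in each wild-type library, a share of reads 6.18 times as large under the knockout label (exact 95% interval 1.98 to 31.1). POLR3D (-0.63), a subunit, and MAF1 (-0.95), a repressor of the polymerase, fell. None of these passed in the authors' deposited table (POLR3C -0.17, POLR3G -0.05, POLR3D -0.23 and MAF1 0.12). Among short-lived mRNAs known for paused polymerase, 1 of 10 was higher and 5 lower, with a median of -0.59. MYC rose by 1.06, and FOS (-2.39), IER2 (-1.76) and HSPA1B (-1.22) fell. FOS and HSPA1B were also lower in the authors' deposited table (-1.28 and -1.02, adjusted p 2.71e-06 and 0.000839). MYC (-0.11) and IER2 (-0.29) did not pass there.

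Other RNA polymerase III transcripts were set beside 7SK. RN7SL1, a gene for the RNA of the signal recognition particle, stood at 37215, 50047 and 30515 TPM across wild-type libraries 1 to 3, against 1513, 1649 and 3197 TPM across those with the knockout label. It fell by 4.10 on the log2 scale (SE 0.38, limma adjusted p 0.00239), the opposite direction to 7SK. RN7SL2 stood at 18510, 22284 and 16683 TPM and at 89.4, 173.5 and 366 TPM, which is -6.43 on the log2 scale (SE 0.44, limma adjusted p 0.00127). The 2 RN7SL genes are near-identical, so reads may be split between them. In the authors' deposited table neither passed, with 0.50 for RN7SL1 (adjusted p 0.582) and -0.09 for RN7SL2 (adjusted p 0.962). The ratio of 7SK to RN7SL1 was 1.09, 0.736 and 1.22 in the wild type and 95, 88.9 and 49.0 under the knockout label. 7SK, at 331 bases and 58.0% GC, and RN7SL1, at 299 bases and 62.9% GC, are alike in length and close in GC content. The part of length or GC content in their differences was not tested.

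The remaining transcripts of that list held too few reads to compare. VTRNA1-2 passed the limma threshold with 2, 1 and 1 wild-type reads against 0 in each knockout-labelled library. That is 4 reads in all, and no fold is given. RNY1 had 0, 6 and 0 wild-type reads against 5, 5 and 2, RNY4 had 3, 1 and 0 against 1, 1 and 0, and VTRNA1-3 had 1, 1 and 2 against 4, 5 and 1. RNU6ATAC, with 0, 1 and 1 reads against 3, 3 and 7, did not pass (limma adjusted p of 0.259), nor did RNU6-2 (0.19), RNU6-8 (0.183) or BCYRN1 (0.409). RNY3, RNU6-1 and VTRNA1-1 had at most 2 reads in any library. RPPH1 and RMRP, RNAs that dividing cells use, were listed at 0 throughout. A short RNA at 0 is therefore given only as listed at 0.

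Genes whose pattern was most like that of 7SK were found among 3256 genes with a mean of at least 50 TPM, as the smallest root mean square difference of centred log2(TPM + 1) over the 6 libraries. H2AC20, a histone gene, was closest at 0.0475, with 218, 212 and 199.6 TPM in the wild type and 842, 815 and 894 TPM under the knockout label. PRRC2C (0.0721), CCNG1 (0.0721), SH2D4A (0.0742) and DNAJA1 (0.0764) followed. H2AC20 had 12, 8 and 13 wild-type reads, CCNG1 19, 12 and 21 and SH2D4A 20, 13 and 20. PRRC2C and DNAJA1 had between 41 and 68 in a wild-type library. With so few reads, counting error limits the order of these genes. In the authors' deposited table CCNG1 (0.91), SH2D4A (0.84) and PRRC2C (0.41) were higher at adjusted p-values of 1.38e-30, 4.27e-23 and 0.0226, and DNAJA1 (0.09) did not pass (adjusted p 0.374), while H2AC20 (-1.27) had no adjusted p. The likeness rests mainly on the difference between the 2 labels, which all 5 genes share with 7SK.

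**Figure D5:**
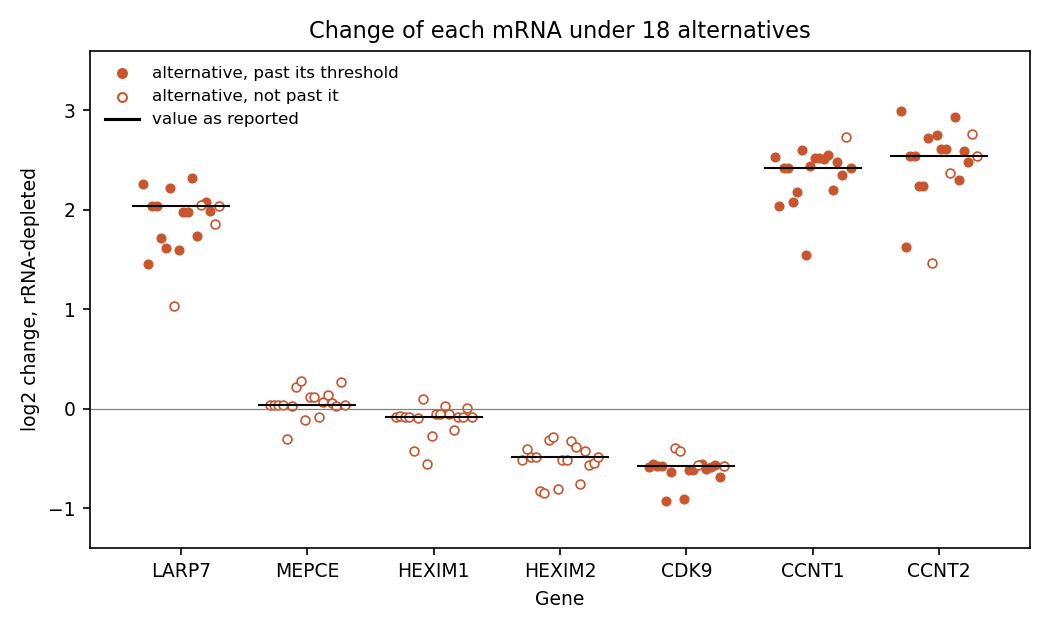
Log2 change of each of the 7 mRNAs in the rRNA-depleted libraries, the line for the value as reported and points for 18 alternatives, filled where the limma adjusted p is past the threshold of that alternative. LARP7, CCNT1 and CCNT2 lie above 0 and CDK9 and HEXIM2 below 0 under all 18, while MEPCE and HEXIM1 cross 0.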

How the data were processed

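RNA was measured in 16 HMC3 libraries. The authors deposited TPM per library after rRNA depletion. What they deposited from poly(A) RNA is a single comparison. Its columns, per the file headers, are the mean normalized count over libraries, used as a signal, the log2 fold change with its SE, and the Wald statistic as a score. The p-value of each gene, raw and adjusted, is also as deposited. Per the submitters' processing notes Trimmomatic, STAR, DESeq2 and hg38 were used. Versions, annotation and counting are not given in the sources used here. The members and lists were chosen with earlier results of these data known.

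Gene lengths, positions, types and GC content came from GENCODE 29 (GRCh38), which matched 56927 of 60669 identifiers (93.8%). TPM multiplied by length gave whole reads, to within 0.02, for 90.9% of values above 0. Libraries of a label were compared by chi-square over genes with at least 10 reads that were whole in every library.

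Genes reaching 1 TPM in 3 or more rRNA-depleted libraries were tested by limma 3.58.1 (R 4.3.3, eBayes, trend) on the log2(TPM + 1) scale, with Benjamini-Hochberg adjustment over all genes at 0.05. On this scale the pseudocount pulls changes of low genes towards 0, while a library at 0 can make a mean log2 change larger than the ratio of means. On simulated reads of 3 against 2 samples, over 14246 genes, 79 of 200 genes changed by 2 on the log2 scale were called, all in the right direction, with 2 other genes. With none changed, 1 of 14303 genes was called. The simulation assumed a small fixed spread between samples, changed only genes above a minimum of expected reads, and held no GC trend. Its rates may therefore not hold for these data or for genes with few reads. All members and METTL3 are named. In each pathway list up to 3 genes that rose and 3 that fell most are named (past the threshold, mean 5 TPM or more, groups that do not overlap), with NELFE, SUPT5H, POLR2A, all RNA polymerase III transcripts with a mean of at least 5 TPM, and the 5 genes most like 7SK. RPPH1, RMRP, HNRNPA1, HNRNPA2B1 and the single cell type markers were named after their values were seen. Some genes and a sequence that this rule or the members would give are not reported here. Reads and intervals were computed with Python 3.11.15, numpy 2.4.6, pandas 2.3.3 and scipy 1.17.1, alignments with biopython 1.88 and figures with matplotlib 3.10.9.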

Additional observations from a re-analysis of the deposited data

How the results depend on the processing

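The log2 ratio of 7SK group means, 1.98 as reported, was 1.63 with median ratio scaling, 1.69 with TPM rescaled over protein-coding genes and 1.73 as a share of recovered reads, an alternative chosen after seeing the data, and 1.93 to 2.03 with 1 library left out. The 5220 genes past the threshold became 2242 at an adjusted p of 0.01 and 1663 to 5185 with 1 library left out, and the 47 pathway list genes became 26 and 12 to 47. The 4 protein-coding members past the threshold became 1 with the GC trend removed, 1 at an adjusted p of 0.01 and 1 to 4 with 1 library left out, fewest without knockout-labelled library 3, where a lone sample is assumed to vary like the other group. HEXIM1, -0.08 as reported, was -0.56 with the GC trend removed, -0.43 with median ratio scaling, 0.10 with TPM rescaled without 7SK rows and -0.21 to 0.03 with 1 library left out. MEPCE was -0.31 with median ratio scaling, -0.11 under voom on recovered reads and -0.08 to 0.27 with 1 library left out, and METTL3, 0.48 as reported (limma adjusted p 0.106), was -0.28 with the GC trend removed and passed without 7SK rows (0.65, 0.0446) and with 6 separate libraries (0.46, 0.0486). The cause of these shifts was not tested. Same-numbered libraries of the 2 labels did not deviate together (correlations 0.0203, -0.0205 and 0.00821), nor did those of different numbers (-0.0379 to 0.0274). With few reads per gene, counting error alone can hold such correlations near 0. Whether same-numbered libraries share a day or batch is thus not settled. With the replicate block 6037 genes and 4 protein-coding members passed, against 6880 and 4 with 6 separate libraries and no block, and not every library correlated best with its own number. In the poly(A) libraries 0 members passed at an adjusted p of 0.05, so the 2 stricter thresholds could only give 0 as well. LARP7, CCNT2 and HEXIM2 rest on few reads in the wild type, which limits the precision of their changes.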
